A study of Mus musculus with 32 samples.

Results

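The 6 genes described here, Ly6c2, Ly6i, Plac8, Chil3, Lyz2 and Fn1, are commonly used as markers of mouse blood monocytes, and they were followed in microglia sorted from the stab-wounded cortex. They were chosen by symbol, and all 6 were found among the 55385 genes in the count table. The study sorted EYFP+ cells by fluorescence from the cerebral cortex of adult C57BL/6 mice that were heterozygous for Cx3cr1CreER, a tamoxifen-inducible Cre recombinase placed in the gene of the fractalkine receptor. All mice, wounded tissue and control tissue alike, had been given tamoxifen at 180 mg/kg on 5 consecutive days from an age of 8 to 10 weeks. The wound libraries came from the stab wound site on days 1, 4, 7 and 14 after injury, and the non-injured libraries from the matching site of the opposite hemisphere of wounded mice, so that no tissue came from unoperated animals. Females and males were profiled separately, which gave 8 wound and 8 non-injured libraries and 8 pairs of 1 day and sex. The labels name no individual animals or pools, so p-values measure only the spread between these samples.

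Classical monocytes are released from the bone marrow into the blood, carry the surface protein Ly6C and the chemokine receptor CCR2, and enter injured tissue, where they become macrophages. Microglia are the resident macrophages of the brain and arise from a separate embryonic lineage. Both express Cx3cr1, at a higher level in microglia than in classical monocytes, so a fluorescent label driven from this locus can mark either. In bulk RNA of sorted cells, more cells of a type and more RNA per cell cannot be told apart, and this holds for each result given here.

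The summed libraries held 20863982 to 55378788 counts. Between 14737 and 40975 genes had counts. The fewest were in the day 14 female libraries, with 14737 at the wound and 14777 on the non-injured side. Transcripts of the mitochondrial genome took 0.7% to 6.89% of counts in wound libraries and 1.16% to 25.7% in non-injured libraries, the highest being the day 4 male non-injured library. Genes that mark microglia were abundant in all 16 libraries. The summed level of 11 of them was between 7987 and 37895 CPM (counts divided by normalised library size) in wound libraries and between 8811 and 69313 CPM in non-injured libraries. One library, from the non-injured side of males at day 7, had the highest non-injured level of Ly6c2, Ly6i, Chil3, Lyz2 and Fn1. The changes at the wound are also given from a fit without it, which has sex in place of pairs.

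The genes lie on 5 chromosomes and are all transcribed from the minus strand (GRCm38, GENCODE M21). Ly6c2 (chr15:75108158-75111970) and Ly6i (chr15:74979534-74983430) belong to the Ly6 cluster, whose related members include Ly6c1 (chr15:75044018-75048830) and Ly6a. Chil3 (chr3:106147554-106167564) lies beside its relative Chil4, and Lyz2 (chr10:117277331-117282321) beside Lyz1. Plac8 (chr5:100553725-100572245) and Fn1 (chr1:71585520-71653200) have no such neighbour. Reads of the related genes can be split between them by the counting. Of the 31-base words in the annotated transcripts, 41.5% in Chil3, 32.8% in Lyz2, 23.8% in Ly6c2, 19.2% in Ly6i and 3.89% in Fn1 also occur in other genes, and 0% in Plac8.

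Promoter sequences were matched for 4 of the markers, Ly6c2, Plac8, Chil3 and Lyz2. They are shown because these genes all rose at the wound, and the promoter of Ly6c1 is shown because its transcript shares the most with that of Ly6c2 and fell. Each sequence is the 250 bases before a transcription start (RefSeq, GRCm38.p6), 5′ to 3′ on the strand of the gene. Capitals mark AGGAAGT, a motif bound by PU.1, the main transcription factor of the myeloid lineage, and by other ETS factors, or its reverse complement ACTTCCT. The windows are chr15:75111972-75112221 for Ly6c2, chr3:106167565-106167814 for Chil3, chr10:117282273-117282522 for Lyz2, chr5:100572206-100572455 for Plac8 and chr15:75048838-75049087 for Ly6c1, all on the minus strand.
Ly6c2: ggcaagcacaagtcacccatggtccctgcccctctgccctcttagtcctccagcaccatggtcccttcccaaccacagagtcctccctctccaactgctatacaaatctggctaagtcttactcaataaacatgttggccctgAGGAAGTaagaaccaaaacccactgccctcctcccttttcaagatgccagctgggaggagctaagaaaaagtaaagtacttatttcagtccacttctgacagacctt
Chil3: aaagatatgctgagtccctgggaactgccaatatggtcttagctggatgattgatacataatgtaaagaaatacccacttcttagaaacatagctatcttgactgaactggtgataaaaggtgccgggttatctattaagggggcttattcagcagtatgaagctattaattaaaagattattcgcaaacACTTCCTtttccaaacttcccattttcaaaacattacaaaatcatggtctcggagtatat
Lyz2: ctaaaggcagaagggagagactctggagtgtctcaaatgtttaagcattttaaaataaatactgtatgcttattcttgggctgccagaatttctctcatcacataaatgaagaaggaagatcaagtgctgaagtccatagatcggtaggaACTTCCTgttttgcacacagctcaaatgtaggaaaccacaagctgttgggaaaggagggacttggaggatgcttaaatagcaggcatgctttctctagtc
Plac8: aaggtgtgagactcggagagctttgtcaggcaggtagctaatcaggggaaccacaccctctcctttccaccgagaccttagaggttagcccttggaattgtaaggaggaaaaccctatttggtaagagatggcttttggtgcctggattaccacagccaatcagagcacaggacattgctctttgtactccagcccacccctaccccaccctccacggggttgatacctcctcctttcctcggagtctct
Ly6c1: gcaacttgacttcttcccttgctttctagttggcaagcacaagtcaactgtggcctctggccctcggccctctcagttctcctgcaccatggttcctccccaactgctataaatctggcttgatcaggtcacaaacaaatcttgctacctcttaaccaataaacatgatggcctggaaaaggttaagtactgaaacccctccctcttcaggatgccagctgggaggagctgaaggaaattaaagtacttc

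The motif stood at -107 to -101 from the start of Ly6c2 shown here, on the strand of the gene. From a second annotated start of Ly6c2 the same site lies at -141 to -135, and a further one at -7 to -1. The motif stood at -60 to -54 in Chil3 and at -100 to -94 in Lyz2, on the opposite strand in both. Neither annotated promoter of Plac8 held it, and in Ly6c1 it was found in the window of the second start site only. Of 32851 promoters of the same length, 7.69% held it on either strand. A further motif, the interferon response element (GAAA, any 2 bases and again GAAA), was searched on both strands and found in 0 of these windows, against 2.98% of all promoters. A match in letters is not evidence of binding.

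The first comparison asked how the markers differed between the wound and the non-injured side when the 4 days were averaged. All 6 rose at the wound. The called genes made up 7.76% of the 28597 genes tested in the upward direction and 7.96% in the downward direction (edgeR quasi-likelihood test, Benjamini-Hochberg adjusted p under 0.05). The median log2 change of the 6 was 4.24, and that of all genes tested was -0.32, or -0.44 with median-ratio scaling in place of TMM. Plac8, Ly6c2, Fn1 and Lyz2, 4 of the 6, exceeded their non-injured partner in 8 of 8 pairs, and so did 5.11% of all genes tested. Chil3 was higher in 7 pairs and had 0 counts on both sides in the other, and Ly6i was higher in 7 and lower in 1. Only Fn1 had no overlap between the 8 wound and the 8 non-injured libraries, as did 0.234% of all genes tested, and without the day 7 male non-injured library 4 of the 6 markers (Ly6c2, Ly6i, Lyz2 and Fn1) did, against 0.577% of all genes. In the fit without that library the mean changes were 6.45 for Ly6c2, 6.00 for Chil3, 4.77 for Lyz2, 4.75 for Fn1, 3.60 for Ly6i and 2.30 for Plac8, and all 6 stayed called, with adjusted p between 5.6e-10 and 0.0158.

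**Figure D1:**
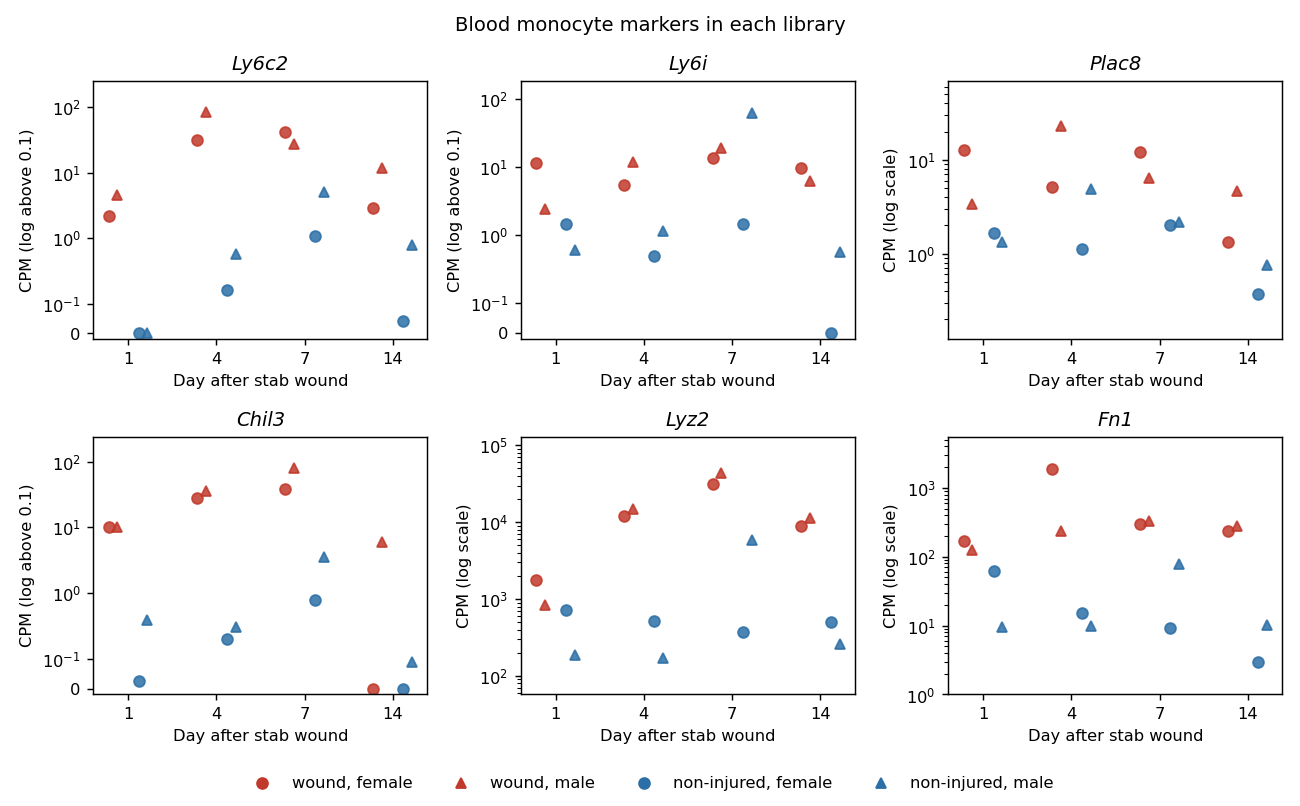
Level of each marker in the 16 libraries, as CPM on a log axis (linear below 0.1 CPM where a gene reached 0), by day, with wound libraries in red left of non-injured libraries in blue, circles for females and triangles for males. The day 7 male non-injured library is the highest blue point for Ly6c2 (5.03 CPM), Ly6i (62 CPM), Chil3 (3.55 CPM), Lyz2 (5815 CPM) and Fn1 (78.5 CPM).

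Ly6c2 encodes the Ly6C surface protein by which classical monocytes are sorted. At day 1 it stood at 2.19 CPM in females and 4.55 CPM in males at the wound, against 0 counts in both non-injured libraries. At day 4 it stood at 31.6 and 83 CPM at the wound and at 0.164 and 0.582 CPM on the non-injured side, in females and males. Both wound libraries of each of these days were thus above both of their controls, and Ly6c2 was close to the limit of detection on the non-injured side. At day 7 the wound libraries held 41.5 CPM in females and 26.9 CPM in males, against 1.08 and 5.03 CPM. At day 14 they held 2.87 and 11.8 CPM, against 0.0411 CPM (1 count) and 0.78 CPM. The level at the wound was highest at days 4 and 7 and lower by day 14, and the non-injured level was highest at day 7.

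The ratio of wound to non-injured Ly6c2 was at least 27.1-fold in the day 1 female pair and at least 53.9-fold in the day 1 male pair, taking 3 counts per library as the floor. It was 193-fold and 143-fold at day 4, in females and males, and 38.4-fold and 5.36-fold at day 7. At day 14 it was 69.8-fold in females, with a 95% counting interval of 12.1 to 2792 because it rests on 1 count, and 15.1-fold in males. The fitted mean over days was 6.21 on the log2 scale (SE 0.55, adjusted p = 0.000199), a value that contains the day 1 libraries at 0 and so depends on the fit. The mean of the 8 pair ratios with those at their bound was 5.37 ± 1.69 (SD, n = 8 pairs).

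Ly6i encodes another membrane-anchored protein of the same cluster. In wound libraries it lay between 2.41 and 18.9 CPM with a median of 10.6 CPM. On the non-injured side it lay between 0 and 62 CPM with a median of 0.877 CPM. The 62 CPM were those of the day 7 male library, and the other 7 non-injured libraries held at most 1.43 CPM. In that pair Ly6i was lower at the wound, with 18.9 CPM against 62 CPM, a ratio of 0.306. In the other 7 pairs it was higher, from 4.08-fold in the day 1 male pair to at least 78.4-fold in the day 14 female pair, whose non-injured library had 0 counts.

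The mean change of Ly6i over days was 2.73 (SE 0.62, adjusted p = 0.0152), the weakest of the 6 by p. It was not called without the day 1 female pair (2.60, adjusted p = 0.129), without the day 1 male pair (2.85, adjusted p = 0.0725) or in the male pairs alone (1.58, adjusted p = 0.361). In a fit with sex in place of pairs and without the day 7 male non-injured library it was 3.60 (adjusted p = 0.00046). The same library also held the highest non-injured level of Ly6c1, at 79.6 CPM against 6.03 to 53.8 CPM in the other 7, and of Ly6a, at 106 CPM against 7.84 to 48.6 CPM. How reads are shared among these genes was not tested.

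Ly6c1 encodes a protein near-identical to that of Ly6c2, found on endothelial cells of the brain as well as on lymphocytes. It fell at the wound (log2 -1.82, SE 0.45, adjusted p = 0.0244), with a median of 6.12 CPM in wound libraries and 33.3 CPM in non-injured libraries. Of the Ly6c2 words of 31 bases, 21.4% occur in Ly6c1. Of 10 tested genes among 16 listed neighbours in the cluster, 2 rose (Ly6d, at 5.66, and Ly6k, at 3.60), 3 fell (Ly6h, at -3.46, Lynx1, at -2.44, and Ly6c1) and 5 were not called. Ly6a was among those not called (0.14, SE 0.40, adjusted p = 0.97). Ly6d was near the floor, at 0 in 2 wound and 5 non-injured libraries and at most 0.0583 CPM on the non-injured side. The size of its change thus depends on the fit.

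**Figure D2:**
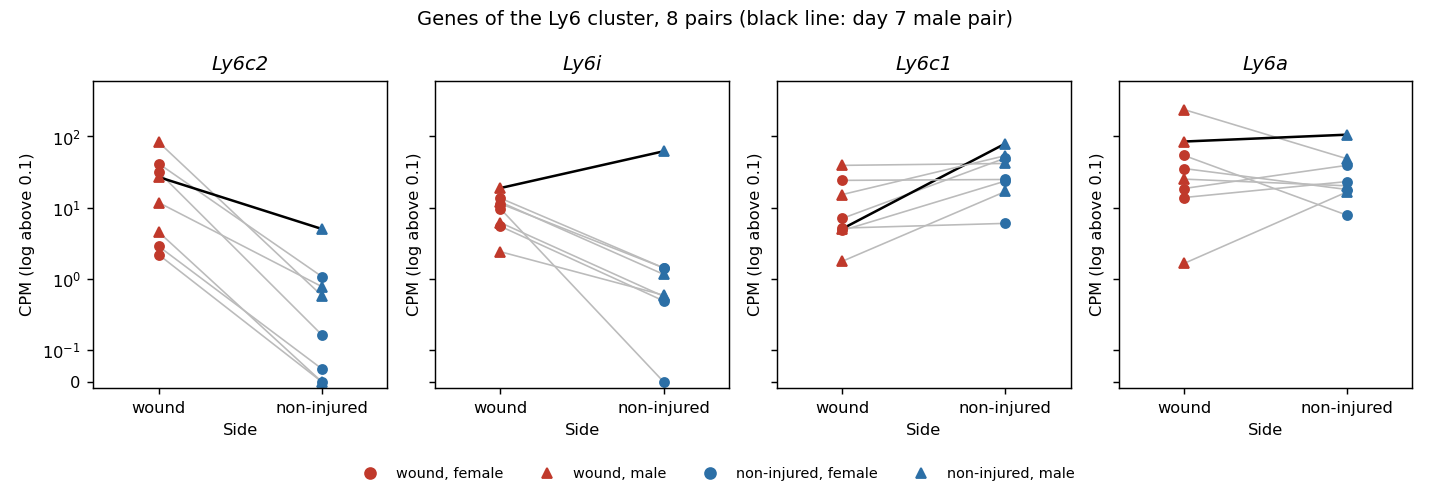
Level of 4 genes of the Ly6 cluster in each of the 8 pairs, as CPM on a log axis (linear below 0.1 CPM), with the wound library in red on the left joined to its non-injured library in blue, circles for females and triangles for males. Ly6c2 is lower on the non-injured side in 8 of 8 pairs, while the black line of the day 7 male pair goes up to 62 CPM for Ly6i, 79.6 CPM for Ly6c1 and 106 CPM for Ly6a on the non-injured side.

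Plac8 encodes a small cysteine-rich protein found in monocytes, neutrophils and lymphocytes. It lay between 1.33 and 23.1 CPM in wound libraries (median 5.72 CPM) and between 0.37 and 4.92 CPM in non-injured libraries (median 1.5 CPM). Its 8 pair ratios lay between 2.55-fold and 7.73-fold, the narrowest range of the 6 markers. The mean over days was 2.23 (SE 0.33, adjusted p = 0.00202). The highest wound and the highest non-injured value were both from males at day 4, whose non-injured library had 25.7% mitochondrial counts. That pair had a ratio of 4.69, within the range of the others.

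Chil3 encodes the secreted chitinase-like protein Ym1, made by monocytes, neutrophils and alternatively activated macrophages. At day 1 it held 10.3 CPM in females and 10.2 CPM in males at the wound, against 0.0269 CPM (1 count) and 0.394 CPM. At day 4 it held 28.2 and 35.5 CPM, against 0.205 and 0.31 CPM, and at day 7 38.4 and 79.6 CPM, against 0.787 and 3.55 CPM. At day 14 the male wound library held 6.03 CPM against 0.09 CPM (3 counts), and both female libraries had 0 counts. In every pair with counts the wound was higher by at least 22.4-fold. The 2 ratios against 3 counts or fewer were 383-fold in the day 1 female pair (counting interval 68.2 to 15176) and 66.9-fold in the day 14 male pair (22.5 to 327.8).

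The mean change of Chil3 over days was 5.86 (SE 0.46, adjusted p = 0.00012), which ranked 31 among the 28597 genes by p. Because of the female day 14 libraries at 0, leaving out the day 14 male pair gave 4.38 with no call (adjusted p = 1). Chil4, which holds 28.9% of the 31-base words of Chil3, had at most 0.812 CPM in wound libraries and 1.14 CPM in non-injured libraries and was not called (-1.72, SE 1.18, adjusted p = 0.418). Of 3 tested genes among 6 chitinase-like relatives, Chil1 rose (1.57, SE 0.45, adjusted p = 0.0439) and 2 were not called.

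Lyz2 encodes lysozyme M, a secreted enzyme that cuts bacterial cell walls and is made by monocytes, macrophages and neutrophils. At day 1 it stood at 1768 CPM in females and 848 CPM in males at the wound, against 728 and 188.5 CPM. At day 4 it stood at 12161 and 14985 CPM, against 514 and 172 CPM. At day 7 it stood at 31676 and 43361 CPM, against 371.6 and 5815 CPM, and at day 14 at 8975 and 11372 CPM, against 498.2 and 261.1 CPM. The transcript was therefore present in all non-injured libraries, unlike Ly6c2, and its level at the wound was lowest at day 1 and highest at day 7 in both sexes.

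Pair ratios of Lyz2 lay between 2.43-fold (day 1 females) and 87.1-fold (day 4 males). The day 7 male pair, at 7.46-fold, was far below the female pair of that day, at 85.2-fold, and its wound level was the highest of all libraries. The mean over days was 4.17 (SE 0.42, adjusted p = 0.000473). Lyz1, which shares 32.8% of the Lyz2 words, rose as well (3.13, SE 0.62, adjusted p = 0.00555), but per transcript length it lay between 0.115 and 21.3 TPM in wound libraries, where Lyz2 lay between 1479 and 29837 TPM.

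Fn1 encodes fibronectin, a matrix glycoprotein made by monocytes and macrophages and also by fibroblasts, endothelial cells and astrocytes. Its wound level lay between 123.9 and 1849 CPM (median 259 CPM), and its non-injured level between 3 and 78.5 CPM (median 10.1 CPM). The day 4 female wound library, at 1849 CPM, was far above the next one, at 325 CPM. The pair ratio was smallest at day 1 in females, with 167.3 CPM against 62.9 CPM or 2.66-fold, and largest at day 4 in females, at 121.5-fold. At day 14 it was 79.3-fold in females and 27.2-fold in males. The mean over days was 4.30 (SE 0.47, adjusted p = 0.000657), and 3.95 without the day 4 female pair (adjusted p = 0.00106).

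Of 6 listed fibroblast genes 0 were called, and their summed level was 4.01 to 125.9 CPM in wound libraries and 2.1 to 18.6 CPM in non-injured libraries, the highest in the day 7 male wound library. Of 5 listed integrin subunits of fibronectin receptors, Itga5 rose (2.32, adjusted p = 0.000743) and Itga4 rose (2.22, adjusted p = 0.00366), and Itgb1, Itgav and Itgb3 were not called. The part of fibroblast RNA in the Fn1 signal was not tested.

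**Figure D3:**
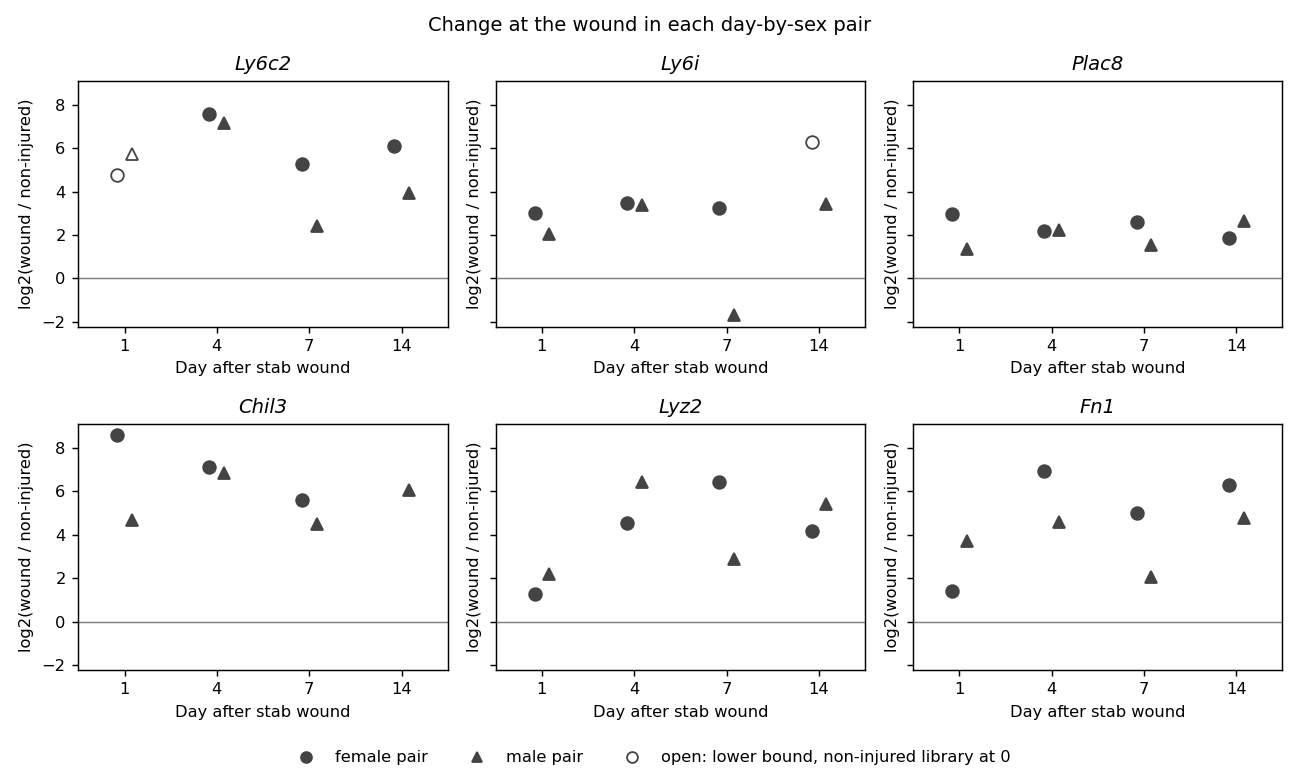
Ratio of the wound to the non-injured library on the log2 scale in each pair of day and sex, with circles for females, triangles for males, open symbols for a lower bound where the non-injured library was at 0, and a grey line at no change. Plac8 stays between 1.35 and 2.95, Lyz2 and Fn1 are lowest at day 1 in females (1.28 and 1.41), and the day 7 male pair of Ly6i (-1.71) is the only point below the line.

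Levels of different genes were compared per transcript length, as TPM, the deposited unit that corrects for library size and length. Lyz2 ranked first in 8 of 8 wound and 8 of 8 non-injured libraries, with medians of 10210 TPM in wound libraries and 577.3 TPM in non-injured libraries. Fn1 ranked second in 6 wound libraries and Ly6c2 in the other 2. The wound medians then ran from Fn1 at 53.3 TPM to Ly6c2 at 33.4, Chil3 at 18, Ly6i at 13.9 and Plac8 at 13.8 TPM. Fn1, at 35.7 to 227.1 TPM in wound libraries, lay above the whole range of Plac8 (2.26 to 34.7 TPM) and of Ly6i (7.67 to 22 TPM). The other ranges below Lyz2 overlapped at the wound, so the rest of that order lies within the spread between libraries. On the non-injured side Fn1 (5.81 TPM) and Plac8 (5.53 TPM) had close medians, and Ly6i (1.57), Chil3 (0.613) and Ly6c2 (0.532 TPM) were lower.

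**Figure D4:**
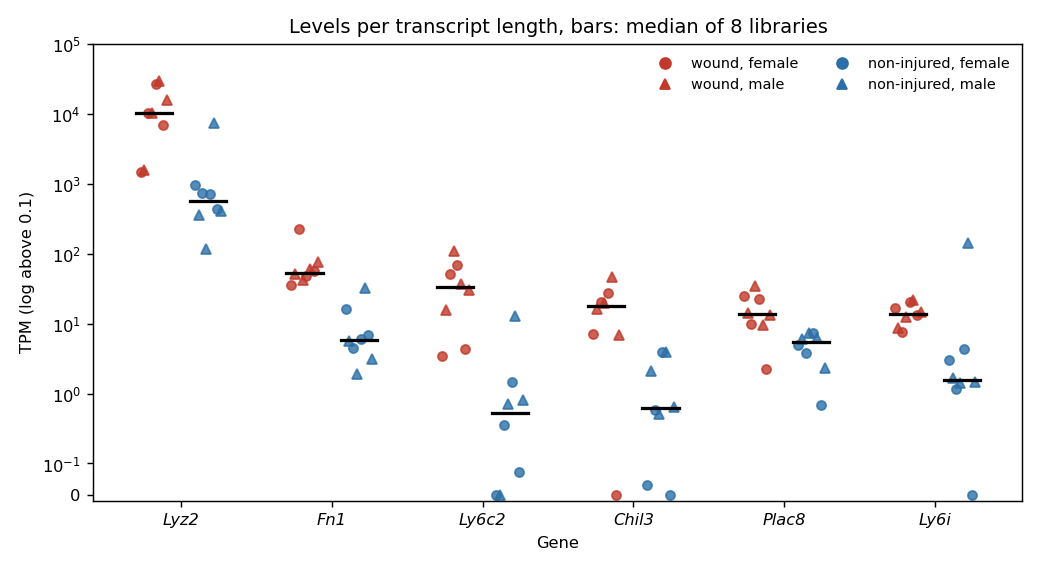
Level of each marker per transcript length in TPM on a log axis (linear below 0.1 TPM), 8 wound libraries in red left of 8 non-injured libraries in blue, circles for females and triangles for males, black bars at the medians. Lyz2 is the highest gene on both sides (medians 10210 TPM at the wound and 577.3 TPM in non-injured libraries), and the single high blue triangle of Ly6i is the day 7 male library (144.6 TPM).

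The next comparisons took each day alone, with 2 pairs and 1 estimate of spread shared over days. At day 1, 1 of 6 markers was called higher, Chil3 (5.62, SE 0.82, adjusted p = 0.0199), where 0.472% of all genes were. Ly6c2 just missed the threshold (adjusted p = 0.0599) and was called without the day 7 male non-injured library (9.78, adjusted p = 0.0386), and Plac8 (2.25, adjusted p = 0.126), Fn1 (2.50, adjusted p = 0.218), Lyz2 (1.72, adjusted p = 0.308) and Ly6i (2.66, adjusted p = 0.327) were further from it. The call of Chil3 at day 1 was lost when any 1 of the day 1 and day 7 pairs was left out, and there 301 genes were called in all, 0 without either day 1 pair.

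At day 4, 4 of 6 markers were called higher, against 1.53% of all genes. These were Ly6c2 (7.31, SE 0.86, adjusted p = 0.0103), Chil3 (6.97, SE 0.78, adjusted p = 0.00996), Fn1 (5.82, SE 0.99, adjusted p = 0.0283) and Lyz2 (5.50, SE 0.88, adjusted p = 0.0247). Plac8 (2.21, adjusted p = 0.0857) and Ly6i (3.41, adjusted p = 0.2) were not. All 4 calls were lost without the day 1 female, the day 1 male or the day 4 male pair, and with no pairs in the model (adjusted p 0.0554 to 0.118). Fn1 also lost its call with sex in place of pairs (adjusted p = 0.0679), without the day 4 female pair (0.0867) and with no filter on counts (0.051), and Lyz2 with sex in place of pairs (0.0803) and in DESeq2 (0.0821). Without the day 7 male non-injured library all 4 were called (adjusted p 3.7e-05 to 0.00292). Of all genes called at day 4, 74.6% were higher, and 57.1% with median-ratio scaling, which moved the median change of all genes to -0.48 from -0.20.

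At day 7, 1 marker was called higher, Chil3 (4.89, SE 0.60, adjusted p = 0.0242), against 0.318% of all genes. Ly6c2 (3.58, adjusted p = 0.054) and Lyz2 (4.65, adjusted p = 0.0648) were close to the threshold, and Ly6i was at 0.31 (adjusted p = 0.862). The call was lost without any 1 of the day 1 and day 7 pairs, while Ly6c2 and Lyz2 were called with either day 4 pair left out (adjusted p 0.0117 to 0.049). Without the day 7 male non-injured library and with sex in place of pairs, Lyz2 was called at 7.11 (adjusted p = 0.00135), Chil3 was not (5.55, adjusted p = 0.232) and Ly6i stood at 3.57 (adjusted p = 0.345). Of all genes called at day 7, 85% were higher, and 56% with median-ratio scaling, which moved the median of all genes to -1.24 from -0.84. With that scaling Ly6i at day 7 was at -0.03.

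At day 14, 0 of 6 were called, where 0.0455% of all genes were called higher. All 6 had an unadjusted p under 0.05, but many other genes did too. The largest of the 6, that of Plac8 (0.0165, edgeR quasi-likelihood test), ranked 2061 among the 28597 genes tested. The estimates for Lyz2 (4.81, SE 0.84, adjusted p = 0.0829) and Fn1 (5.43, SE 0.97, adjusted p = 0.0847) lay above those of days 1 and 7 and below those of day 4. Without the day 7 male non-injured library both were called, Lyz2 at 4.88 (adjusted p = 0.000127) and Fn1 at 5.15 (adjusted p = 0.00434), and both were called with either day 4 pair left out (adjusted p 0.0172 to 0.04). Their unadjusted p of 0.000251 and 0.000295 ranked 85 and 98 among all genes. DESeq2 on the same model called 4, 4, 3 and 5 of the 6 higher at days 1, 4, 7 and 14, where it called 6.61%, 6.81%, 4.43% and 6.06% higher of the genes to which it gave an adjusted p. Its 4 at day 4 held Plac8 (1.94, adjusted p = 0.0396) in place of Lyz2. The authors' deposited table of both sexes gave a higher level with adjusted p under 0.05 for 5, 6, 4 and 6 of the 6 at days 1, 4, 7 and 14, and for 2.88%, 2.42%, 1.97% and 3.34% of all genes listed there. Whether it counted the 2 deposited columns of each day, sex and side as separate samples is not known here. Its calls may therefore not rest on the same number of samples as the fits above. In the authors' deposited table Ly6i at day 7 had a log2 change of -1.28 (adjusted p = 0.257) and Lyz2 at day 1 one of 1.54 (adjusted p = 0.0653).

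Calls on single days do not show that days differ, and the differences themselves were tested. No marker and 0 of 28597 genes had a change that differed between days (edgeR quasi-likelihood F test), although 1810 genes had an unadjusted p under 0.05, and 0 were called with median-ratio scaling either. The smallest unadjusted p values among the markers were those of Lyz2 (0.0263, adjusted p = 0.675) and Ly6c2 (0.0371, adjusted p = 0.675). The change of Lyz2 at day 4 was 3.78 larger than at day 1 (SE 1.06, adjusted p = 0.947), and that of Fn1 was 3.31 larger (SE 1.23, adjusted p = 1). That of Ly6c2 was 3.74 smaller at day 7 than at day 4 (SE 1.15, adjusted p = 1).

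In the 8 wound libraries alone, 23 of 22040 genes (0.104%) differed between days, and 0 of the 6 markers were among them. Ly6c2 (unadjusted p = 0.00103, adjusted p = 0.195), Chil3 (0.00606, adjusted p = 0.424) and Lyz2 (0.0129, adjusted p = 0.529) had the smallest p values. In the 8 non-injured libraries 0 of 24622 genes were called, 351 had an unadjusted p under 0.05, and Ly6i had the smallest p of the markers (0.0046, adjusted p = 1).

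The injury effect was also compared between females and males, over all days. For 0 of 28597 genes was a difference called, although 2089 had an unadjusted p under 0.05. The female minus male difference was 2.83 for Ly6i (SE 0.97, adjusted p = 0.56), 2.30 for Ly6c2 (SE 0.99, adjusted p = 0.646), 1.20 for Chil3 (SE 0.93, adjusted p = 0.888), 1.16 for Fn1 (SE 0.74, adjusted p = 0.829), 0.67 for Plac8 (SE 0.72, adjusted p = 0.942) and -0.23 for Lyz2 (SE 0.79, adjusted p = 1). The female pairs alone called 6 of 6 markers higher, against 3.8% of all genes tested in them, and the male pairs alone 5 of 6, all but Ly6i, against 1.64%.

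Within the wound the markers were compared with each other over the 8 libraries, on log2(CPM + 1). Of 15 pairs of markers, 14 had a Pearson r above 0, with a median of 0.46, and 0 passed after adjustment over the 15 (exact permutation test, two-sided). The highest were Ly6c2 with Chil3 (r = 0.74, exact permutation p = 0.0263, adjusted p = 0.24; rho = 0.67, p = 0.0831, adjusted p = 0.178) and Ly6c2 with Lyz2 (r = 0.72, exact permutation p = 0.0434, adjusted p = 0.24; rho = 0.76, p = 0.0368, adjusted p = 0.172). Without the 2 libraries farthest from the median of Ly6c2 these r values were 0.69 and 0.75. The lowest was Plac8 with Fn1, at -0.06 (exact permutation p = 0.887, adjusted p = 0.95; rho = 0, p = 1), and -0.12 without the 2 farthest libraries.

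The genes most like each marker over the 8 wound libraries were sought among 8618 genes with a mean of at least 10 CPM, the markers themselves left out, as a description over points that share day and sex. For Lyz2 they were Il18bp (r = 0.993), Hpse (r = 0.981) and Clec2i (r = 0.98), which encode an interleukin 18 binding protein, heparanase and a C-type lectin. For Ly6i they were Lmo4 (r = 0.94), Cyba (r = 0.931), a subunit of the phagocyte oxidase, and the chemokine Ccl8 (r = 0.927). For Ly6c2 they were Lrrc8c (r = 0.969), Ap1s2 (r = 0.967) and Cog3 (r = 0.966), and for Chil3 Csnk1g2 (r = 0.967), Emp1 (r = 0.966) and Pclaf (r = 0.959). For Fn1 they were Rgl2 (r = 0.89), Tent5c (r = 0.888) and Cracr2b (r = 0.873), and for Plac8 Pacs2 (r = 0.96), Arf3 (r = 0.94) and 2310022B05Rik (r = 0.93). Chil3 fell to 0 CPM at its lowest in the wound libraries, and Csnk1g2, Emp1 and Pclaf to 0.2, 0 and 0 CPM at theirs. The part of such low values in their r was not tested.

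Other genes of classical monocytes were examined beside the 6. Of 17 listed, 15 rose in the mean over days, 0 fell and 2 were not called, with a median log2 change of 2.81. Ccr2, the chemokine receptor by which monocytes leave the marrow, rose by 2.81 (SE 0.24, adjusted p = 0.000232), with 10.9 to 109.5 CPM in wound libraries and 0.814 to 15.3 CPM in non-injured libraries. The C-type lectins Clec4e (5.33, adjusted p = 8.76e-05) and Clec4d (5.20, adjusted p = 0.000144) had the largest changes, followed by Ifitm6 (4.65, adjusted p = 0.000881) and Klra2 (3.70, adjusted p = 0.00242). Vcan (0.48, adjusted p = 0.513) and Gda (1.17, adjusted p = 0.169) were not called. Their summed level lay between 220.6 and 2404 CPM in wound libraries and between 45.9 and 455.6 CPM in non-injured libraries, and was highest on both sides in males at day 7. Of 8 genes of non-classical monocytes, 3 rose (Cd300e, Itgal and Treml4) and 5 were not called.

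Of 6 ligands that act on monocytes and microglia, 4 rose at the wound, namely Ccl12 (2.22, adjusted p = 0.00019), Ccl7 (2.10, adjusted p = 0.0237), Csf1 (2.05, adjusted p = 0.000707) and Ccl2 (1.60, adjusted p = 0.00734). Ccl8 was not called (1.71, adjusted p = 0.0704), and Cx3cl1, the ligand of the reporter receptor, fell (-3.41, adjusted p = 0.000938). Cx3cr1 itself was not called (-0.65, adjusted p = 0.0901), with medians of 18.6 CPM in wound libraries and 33.7 CPM in non-injured libraries. Of 11 microglial genes 7 fell, among them Slc2a5 (-2.94, adjusted p = 8.76e-05) and P2ry12 (-2.50, adjusted p = 0.000274), Fcrls rose (0.75, adjusted p = 0.0121) and 3 were not called.

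Some, but not all, markers of other cells that can carry some of the 6 transcripts rose as well. Of 10 neutrophil genes 7 rose, 0 fell and 3 were not called, with Retnlg (6.53, adjusted p = 0.00419), Mmp8 (5.71, adjusted p = 8.76e-05), S100a8 (5.28, adjusted p = 0.000142) and S100a9 (5.08, adjusted p = 0.00215) changing most. Retnlg had a median of 1.18 CPM at the wound and was at 0 in 4 non-injured libraries, so the size of its change depends on the fit. Ly6g, which defines neutrophils, was at 0 in 4 of 8 wound and 3 of 8 non-injured libraries and reached at most 0.53 CPM in wound and 0.225 CPM in non-injured libraries. The summed level of the list, between 60.3 and 662.1 CPM in wound libraries and between 51.8 and 714.4 CPM in non-injured libraries, was 307.7 CPM at the median of wound libraries and 303.1 CPM at that of non-injured libraries. Csf3r, which was not called (-0.32, adjusted p = 0.303), had medians of 157.8 and 293.5 CPM in wound and non-injured libraries. Of 8 genes of border macrophages 4 rose, 0 fell and 4 were not called, with sums of 95.3 to 2852 CPM in wound libraries and 22.8 to 528 CPM in non-injured libraries. Those that rose were Ms4a7 (3.77), Siglec1 (2.78), Folr2 (2.74) and Pf4 (2.14). Those not called were Cbr2 (0.73), Mrc1 (0.27), Lyve1 (-0.44) and Cd163 (-0.46).

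Genes of T and NK cells and of dendritic cells had low sums, and those of B cells reached higher ones. Of 7 T and NK cell genes 3 rose and 4 were not called, and their sum was 4.9 to 16.1 CPM in wound libraries and 0 to 13.4 CPM in non-injured libraries, again highest in the day 7 male library. Of 6 dendritic cell genes Ccr7 rose (6.55, adjusted p = 0.000998) and 5 were not called, with sums of 8.24 to 35.2 CPM in wound libraries and 7.19 to 24.5 CPM in non-injured libraries. Ccr7 was at 0 in 1 wound and 4 non-injured libraries, so the size of its change depends on the fit. Of 4 tested B cell genes Igkc rose (6.08, adjusted p = 0.00911) and 3 were not called, and the list summed to 6.74 to 219.4 CPM in wound libraries and 4.26 to 107.9 CPM in non-injured libraries. Igkc reached 178.4 CPM and Cd79b 111.6 CPM in wound libraries, where Ly6c2 reached 83 CPM. Of 5 red cell genes Hba-a1 rose (2.51, adjusted p = 0.025) and 4 were not called, with sums of 0.437 to 193.8 CPM in wound libraries and 0.273 to 70.4 CPM in non-injured libraries.

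Endothelial genes moved the other way. Of 7, 4 fell, 0 rose and 3 were not called, and they summed to 42.4 to 169 CPM in wound libraries and 101.8 to 618.5 CPM in non-injured libraries, the highest being the day 7 male library. Of 5 astrocyte genes Slc1a2 fell (-1.76, adjusted p = 0.0336) and 4 were not called. Those 4 went in both directions, with Gfap at 2.99, Aqp4 at 0.33, Gja1 at -0.80 and Aldoc at -1.80. Gfap just missed the threshold (adjusted p = 0.0527), with medians of 207.2 CPM in wound libraries and 12.5 CPM in non-injured libraries. The 5 astrocyte genes summed to 134.9 to 1004.3 CPM in wound libraries and 73.4 to 4952.8 CPM in non-injured libraries. The highest sums were those of the day 4 male (4952.8 CPM) and day 7 male (3842.1 CPM) non-injured libraries, and the next was 1435.5 CPM. The part of any of these cells in the levels of the 6 markers was not tested.

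**Figure D5:**
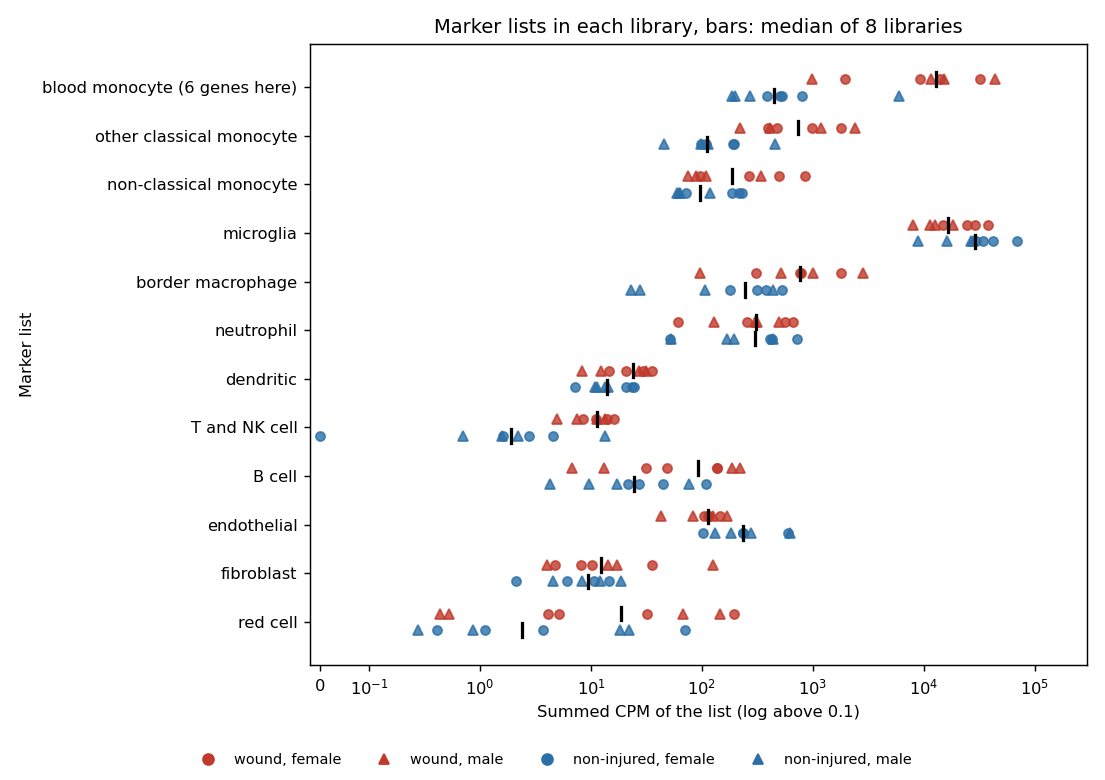
Summed CPM of each marker list in the 16 libraries on a log axis (linear below 0.1 CPM), wound libraries in red above non-injured libraries in blue, circles for females and triangles for males, black bars at the medians of 8 libraries. The 6 markers, of whose sum Lyz2 makes up 85.4% to 99% at the wound and 91.1% to 99.3% on the non-injured side, add up to a median of 12881 CPM at the wound and 444 CPM on the non-injured side, with the day 7 male non-injured library apart at 5966 CPM.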

How the data were processed

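Polyadenylated RNA of sorted cells was converted with SMART-Seq v4 and Nextera XT kits, which do not keep the strand, per the labels' protocols. Salmon 1.0.0 and DESeq2 1.26.0 appear in the submitters' processing notes, with genome build and annotation not given in the sources used here. Per gene, the authors deposited expected counts, which are estimated reads that are not scaled, and TPM values. For each day the authors also deposited their own log2 fold changes (the injured side relative to the other, per the file headers), a standard error for each as a score, and an adjusted p-value. Coordinates are from GENCODE M21 of GRCm38, in which 54487 of the 55385 gene IDs were found.

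All 32 columns of counts entered the analysis. The 2 columns of a day, sex and side differed by little more than counting noise (median chi-square per gene 0.476 to 0.639, against 31.5 to 112.7 between the sexes), so they were summed and rounded and counted as 1 sample, and their TPM values averaged. Deviations of columns with equal replicate numbers correlated between -0.0346 and 0.0588, and the numbers were not used as pairs. The 2 sides of 1 day and sex formed a pair, 8 in all. In R 4.3.3, edgeR 4.0.16 fitted 8 pair means and 4 day effects by quasi-likelihood with TMM factors (filterByExpr, minimum count 10, 28597 genes, 4 residual degrees of freedom), with p adjusted by Benjamini and Hochberg at 0.05. Wound and non-injured libraries were also fitted alone with day and sex. Intervals of ratios and the floor of 3 counts cover counting error only. CPM are counts over the filtered library size times its TMM factor.

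Simulated counts covered the same 28597 genes, of which only 50 were changed for each size of change. The mean over days recovered 100% of the 50 genes changed by 4 on the log2 scale and 86% of the 50 changed by 2. Day 1 alone recovered 92% and 22%. The test of differences between days recovered 58% of the 50 genes changed by 4, for the pattern over days that was simulated. These rates describe the changed genes only. They need not hold for genes with few counts or for other patterns over days.

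The markers, lists and tests were chosen with earlier results of these data known. Genes named were the 6 markers, the 3 genes most like each, and of each list up to 4 called genes with the largest change and any marker at 0 in most libraries, of which 1 is not reported here. Other genes named, such as Ccr2, Cx3cr1, Ly6a, Csf3r, Ly6g and those not called, were picked after their values were seen. Alternatives were median-ratio factors, DESeq2 1.42.0, no filter on counts, limma 3.58.1 on log2(TPM + 1) and log2(TPM + 0.1), no pairs, sex in place of pairs, 32 separate columns, each pair left out in turn and each sex alone. A fit without the day 7 male non-injured library was added after the data had been seen.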

Additional observations from a re-analysis of the deposited data

Results flagged for a closer look

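Of 12 groups of 8 libraries, 6 had a library far from the others by Dixon's ratio on CPM, taken without logs. For normally distributed values chance would flag about 1 group in 20. That rate need not hold for CPM over different days and sexes. The day 7 male non-injured library stood above the other non-injured libraries for Ly6c2 (5.03 CPM, next highest 1.08 CPM), Chil3 (3.55 CPM, next 0.787 CPM), Lyz2 (5815.1 CPM, next 728.2 CPM) and Ly6i (62 CPM, next 1.43 CPM). It shares 1 source, so these 4 are not separate events. That library also had the highest non-injured sums of the other classical monocyte genes (455.6 CPM), of T and NK cell genes (13.4 CPM) and of endothelial genes (618.5 CPM), an astrocyte sum of 3842.1 CPM, second to that of the day 4 male library, and 6.7% mitochondrial counts. The part of these in the result was not tested. The day 4 male non-injured library was apart for Plac8 (4.92 CPM, next 2.18 CPM), with the highest astrocyte sum (4952.8 CPM), and the day 4 female wound library for Fn1 (1849.2 CPM, next 325 CPM).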

How the results depend on the processing

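In the mean over days the 6 markers kept a positive change under all 120 alternative values, of which 114 stayed called. The calls of Chil3 in both fits of 32 columns (5.23, adjusted p = 1) and without the day 14 male pair, and 3 of Ly6i given above, were lost. Over all days and alternatives 543 of 552 single values were above 0. Genes called in the mean over days numbered 4495, against 1801 without pairs, 2098 with sex in place of pairs, 1620 in female pairs, 1978 in male pairs and 2272 with the day 7 male non-injured library left out, a fit added after the data had been seen. At days 1, 4, 7 and 14 the 301, 586, 107 and 17 genes called became 2463, 1876, 2136 and 2115 in DESeq2, and 101, 210, 27 and 2 with no filter. They became 565, 319, 179 and 115 in limma on log2(TPM + 1), and 639, 358, 248 and 256 on log2(TPM + 0.1). They became 2, 5, 0 and 7 without pairs, 12, 19, 0 and 7 with sex in place of pairs, and 107, 165, 26 and 57 in that added fit. Median-ratio factors gave 538 at day 1 and 40 at day 14. The cause of these shifts was not tested.

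Markers called at day 1 numbered 1, against 2 with median-ratio factors, on log2(TPM + 0.1) and in that added fit, 4 in DESeq2, and 0 without pairs or with sex in their place. At day 4 they numbered 4, against 0 without pairs and 2 with sex in their place. At day 7 they numbered 1, against 3 in DESeq2 and 0 on log2(TPM + 1), without pairs and with sex in their place. At day 14 they numbered 0, against 5 in DESeq2, 2 on log2(TPM + 1), 4 on log2(TPM + 0.1) and 2 in that added fit. Ly6i at day 7 reversed from 0.31 to -0.03 with median-ratio factors, -0.33 on log2(TPM + 1), -0.25 on log2(TPM + 0.1), -0.97 without pairs and -0.73 with sex in their place.

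With each pair left out in turn, genes called ranged from 1517 to 4050 in the mean over days, 0 to 771 at day 1, 0 to 576 at day 4, 0 to 631 at day 7 and 0 to 144 at day 14. Markers called ranged from 5 to 6 in the mean over days, 0 to 1 at day 1, 0 to 4 at days 4 and 7 and 0 to 2 at day 14. Ly6i at day 7 ranged from -1.72 to 3.29 and Chil3 at day 14 from 0 to 6.02. A day with 1 pair left has its spread estimated from the other days.

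Replicate numbers in the labels pair nothing that could be shown. In the fit of 32 columns the replicate block called 12225 genes in the mean over days and 14570, 14886, 15556 and 12001 at days 1, 4, 7 and 14, with 6, 6 and 5 markers at days 1, 7 and 14. Without the block there were 12231, 14586, 14916, 15576 and 12023 genes, and 6, 6 and 5 markers. These fits take the near-identical columns for replicates.

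Depth limits Ly6c2 and Chil3 most, which had at most 3 counts in 3 non-injured libraries each.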

Other observations

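In the male pair of day 7 the 6 markers did not move alike. Ly6c2 was 5.36-fold, Chil3 22.4-fold, Lyz2 7.46-fold, Fn1 4.14-fold and Plac8 2.90-fold higher at the wound, while Ly6i was at 0.306 of its non-injured level. In the female pair of the same day Ly6i was 9.52-fold higher.

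In females at day 14 Chil3 had 0 counts at the wound, where Ly6c2 had 73, Plac8 34 and Ly6i 246 counts. With 0 counts up to 3 are allowed by counting error alone, or 0.118 CPM in that library. The male wound library of the same day held 6.03 CPM. The day 14 female libraries had the fewest genes detected, 14737 at the wound and 14777 on the non-injured side. Transcripts lost before sequencing are not covered by that bound, and their part was not tested. The same holds for the day 14 female ratios of Ly6c2 and Ly6i given above.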
